A study of Mus musculus with 16 samples.

Results

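The mu and pi glutathione S-transferases are cytosolic enzymes that join glutathione to electrophilic compounds. The analysis covered every probe whose only gene symbol in the platform annotation was Gstm1, Gstm2, Gstm6 or Gstp1. These were 4 probes, 1 for each of the 4 genes, among 9596 probes and 6734 named genes on the array. The first 3 encode mu class subunits and Gstp1 encodes the pi class subunit.

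Liver poly(A) RNA was compared in female APOE3Leiden (E3L) mice, a transgenic line that expresses the human APOE*3-Leiden variant and is kept on a C57BL6/JIco background. All mice ate a Western-type diet (diet W, semi-synthetic and enriched with saturated fat and cholesterol) for 4 weeks from 10 weeks of age. The treated group of 8 mice received the same diet with 0.04% cafestol and 0.02% kahweol by weight, the lipid-soluble diterpenes of unfiltered coffee, and the control group had 7 mice. Each treated liver was hybridised on 2 cDNA arrays (16 arrays in all) with its RNA in Cy5 and control diet liver RNA in Cy3, and no array had the dyes swapped. The labels name no single control mouse, so each test set the ratio against 0 and the spread among control mice did not enter it.

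The deposited values are log2 ratios of the 2 channels, and the sources used here do not say which channel is the numerator. Signs are therefore given as deposited and folds without a direction. A negative value could mean more or less of the transcript on cafestol, and the 2 readings cannot be told apart from the labels. A ratio also gives no level, so the labelled tissue could not be checked against liver markers and the 4 genes could not be ranked by abundance. The 16 arrays carried values for 8094 to 9314 probes, and their number limits the precision. The correlation between any 2 arrays over all probes was 0.15 to 0.912, so none ran opposite to the others.

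Glutathione S-transferases act as dimers of subunits. The conjugates leave the cell through ABC transporters and are trimmed outside it to mercapturic acids. Many transferase genes are known targets of NRF2, a transcription factor held in the cytosol by KEAP1 until electrophiles modify KEAP1, and NRF2 binds antioxidant response elements in DNA. In rodent liver, cafestol and kahweol are known for raising glutathione S-transferase activity. That knowledge was not used to set the direction of the ratio.

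In the RefSeq gene order (assembly GRCm38.p6, used for names and order only) the mu genes form 1 cluster on chromosome 3, in the order Gstm5, Gstm7, Gstm6, Gstm3, Gstm2, Gstm1 and Gstm4. The pi genes Gstp1, Gstp2 and Gstp3 lie side by side on chromosome 19. Of the neighbours, Gstm5 and Gstp3 had a probe with a single gene symbol, and Gstm3, Gstm4, Gstm7 and Gstp2 were not analysed here. Paralogs in these clusters are close in sequence, so a cDNA probe can also bind the transcript of a neighbour, and a value named for 1 gene may include others.

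The 250 bases before the start were read from RefSeq (GRCm38.p6) to see what the 4 genes share, and all 4 matched, with 7 windows because Gstm1 has 2 starts and Gstm6 has 3. The antioxidant response element core was searched on both strands as TGACNNNGC and TGAGNNNGC, beside the AP-1 site TGAGTCA, which can overlap the second form, and the TATA element TATAAA. Gstp1, Gstp2, Gstm5 and the downstream start of Gstm1 are shown because they are the pi gene, its unmeasured neighbour, the mu gene with a small ratio and the mu gene with the largest. Each runs 5′ to 3′ on the gene's strand, with all 4 motifs in capitals.
Gstp1, chr19:4037913-4038162, minus strand: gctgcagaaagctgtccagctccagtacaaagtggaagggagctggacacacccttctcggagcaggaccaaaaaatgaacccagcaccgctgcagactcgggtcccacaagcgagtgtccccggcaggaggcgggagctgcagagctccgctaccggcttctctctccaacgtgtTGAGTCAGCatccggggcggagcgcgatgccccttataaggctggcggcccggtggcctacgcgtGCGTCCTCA
Gstp2, chr19:4042222-4042471, minus strand: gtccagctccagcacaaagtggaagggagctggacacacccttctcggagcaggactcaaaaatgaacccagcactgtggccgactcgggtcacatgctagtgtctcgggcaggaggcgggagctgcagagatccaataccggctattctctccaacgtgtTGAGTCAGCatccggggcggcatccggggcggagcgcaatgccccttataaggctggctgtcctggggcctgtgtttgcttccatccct
Gstm5, chr3:107895604-107895853, plus strand: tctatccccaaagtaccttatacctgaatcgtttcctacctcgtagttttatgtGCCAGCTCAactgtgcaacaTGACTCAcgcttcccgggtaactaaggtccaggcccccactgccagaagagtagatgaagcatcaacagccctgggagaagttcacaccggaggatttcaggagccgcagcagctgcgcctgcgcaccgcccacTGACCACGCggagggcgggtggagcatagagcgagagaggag
Gstm1, chr3:108017819-108018068, minus strand: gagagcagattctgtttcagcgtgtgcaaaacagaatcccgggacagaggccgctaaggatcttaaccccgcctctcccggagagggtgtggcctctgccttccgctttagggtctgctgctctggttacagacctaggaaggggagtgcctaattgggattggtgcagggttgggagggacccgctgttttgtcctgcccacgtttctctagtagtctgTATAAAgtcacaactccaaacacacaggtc
Gstp1 held TGAGTCAGC, an AP-1 site inside the second core form, from base -74 relative to the start, and a further match to that form next to the start. Gstp2 held the same 9 letters from base -89, and its window was 78.5% identical to that of Gstp1 in a global alignment. Gstm5 held both core forms and an AP-1 site, and Gstp3, not shown, held TGAGTCTGC from base -152. None of the 6 windows of Gstm1, Gstm2 and Gstm6 held either core form, and the TATA element of Gstm1 lay from base -30. Among 32851 promoter windows of the same length, 10.2% held TGACNNNGC, 14.4% held TGAGNNNGC, 4.46% held TGAGTCA and 12.4% held TATAAA. The xenobiotic response element core GCGTG, not capitalised here, was in 28.2% of windows. It was in those of Gstp1, Gstp3 and Gstm5 and in none of Gstm2 and Gstm6. Both windows of Gstm1 held it at the same site, in the stretch where they overlap. A match describes letters in this window and is no evidence of binding, and no match says nothing about elements farther away.

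All 4 transferases stood apart from 0 on every array: 64 of 64 values were negative. Single values ran from a 2.7-fold to a 7-fold difference between the channels. On 14 of 16 arrays the 4 genes were the 4 lowest of all genes and unnamed probes. On the other 2 arrays, both of mouse TP4215, Phlda1 (-1.81 and -1.68) lay below Gstp1. After the 4 transferases the next lowest gene was Dao, at -1.29, with a gap of 0.575 between it and the nearest of them. The 4 genes were chosen with earlier results of these data known, so their place at the low end is no separate observation.

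**Figure D1:**
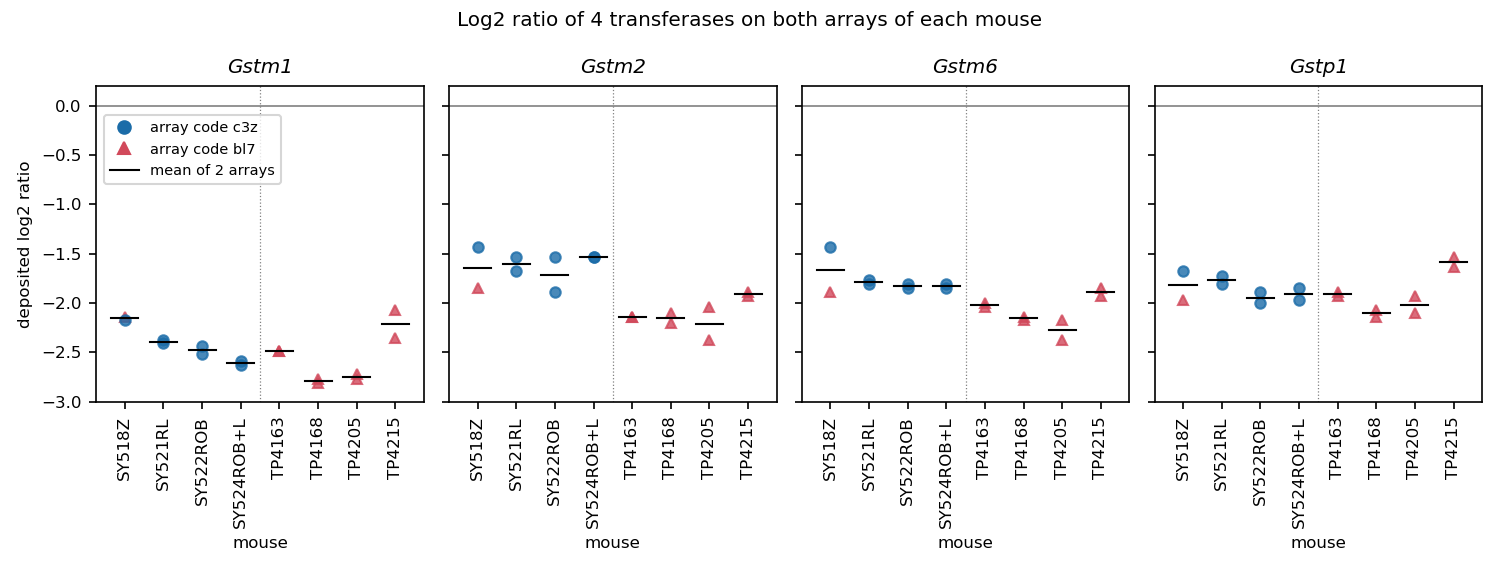
Deposited log2 ratio (y axis) of Gstm1, Gstm2, Gstm6 and Gstp1 in each of 8 treated mice (x axis); circles are arrays of code c3z, triangles arrays of code bl7, and horizontal lines the mean of the 2 arrays. All points lie below -1.4, and the TP mice lie below the SY mice for Gstm2 and Gstm6 but not for Gstm1 and Gstp1.

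Gstm1 (Entrez 14862) encodes a mu class subunit abundant in mouse liver, and its probe had the largest difference of the array. The means of the 2 arrays in the SY mice were -2.15 in SY518Z, -2.39 in SY521RL, -2.47 in SY522ROB and -2.61 in SY524ROB+L. In the TP mice they were -2.21 in TP4215, -2.49 in TP4163, -2.74 in TP4205 and -2.79 in TP4168. The highest and lowest mouse thus differed by less than a log2 unit, and the ranges of the SY and TP mice overlapped. The mean of -2.48 ± 0.23 (SD, n = 8) was a 5.59-fold difference, past the threshold against 0 (limma, adjusted p = 3.62e-10). Gstm1 ranked lowest on 16 of 16 arrays.

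Gstm6 (Entrez 14867) and Gstm2 (Entrez 14863) encode further mu class subunits. Gstm6 was at -1.66 in SY518Z, -1.79 in SY521RL, -1.83 in SY522ROB and -1.83 in SY524ROB+L. In the TP mice it was at -1.89 in TP4215, -2.02 in TP4163, -2.15 in TP4168 and -2.27 in TP4205. Every TP mouse lay below every SY mouse, as in 3.29% of all rows tested. Single arrays overlapped, with 1 array of SY518Z at -1.89 and 1 of TP4215 at -1.85. The mean of Gstm6 was -1.93 ± 0.20 (SD, n = 8), a 3.81-fold difference (limma, adjusted p = 1.12e-09).

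Gstm2 stood at -1.54 in SY524ROB+L, -1.61 in SY521RL, -1.64 in SY518Z and -1.71 in SY522ROB. The TP mice were at -1.91 in TP4215, -2.14 in TP4163, -2.15 in TP4168 and -2.21 in TP4205. Here too the TP mice all lay below the SY mice (3.29% of all rows tested). The mean of Gstm2 was -1.86 ± 0.27 (SD, n = 8), a 3.64-fold difference (limma, adjusted p = 2.83e-08).

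Gstp1 (Entrez 14870) encodes the pi class subunit, which in mice is found in hepatocytes as well as bile duct cells. Its SY mice were at -1.77 in SY521RL, -1.82 in SY518Z, -1.91 in SY524ROB+L and -1.94 in SY522ROB. Its TP mice were at -1.58 in TP4215, -1.91 in TP4163, -2.02 in TP4205 and -2.10 in TP4168, so that they lay on both sides of the SY mice. The mean of Gstp1 was -1.88 ± 0.16 (SD, n = 8), a 3.68-fold difference (limma, adjusted p = 3.62e-10), and its SD among mice was the smallest of the 4.

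Each of the 4 genes was negative in 8 of 8 mice and passed. Of all 8348 genes and unnamed probes tested, 43.4% were called, 25.4% with a negative and 18% with a positive ratio. The 4 genes were the lowest of these, which their choice with earlier results known favours. Against a minimum difference of 1.2-fold, 1.47% were called, 0.815% with a negative and 0.659% with a positive ratio, and all 4 transferases were among them (limma treat, adjusted p 8.71e-10 to 8.73e-08). If the control RNA was pooled equally from the 7 mice and these varied as much as the treated mice, 21.7% of all rows and all 4 transferases were called (adjusted p 3.30e-08 to 2.40e-06). The exact sign-flip permutation test over the 8 mice gave p = 0.00781 for each gene, the smallest it can give. A dye effect specific to a probe would add to every value, since no dyes were swapped, and was not tested.

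**Figure D2:**
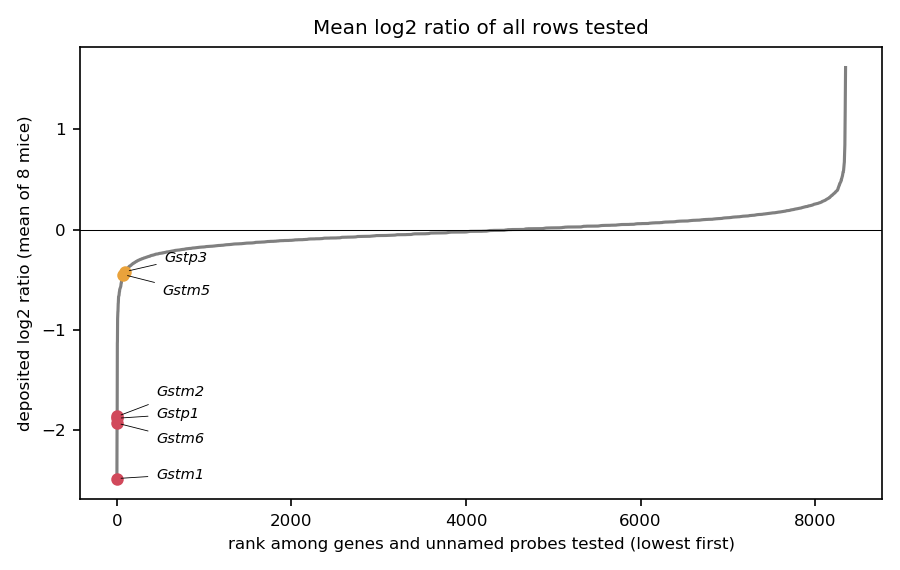
Mean deposited log2 ratio over the treated mice (y axis) against rank (x axis) for the 8348 genes and unnamed probes tested, as a grey line. The 4 transferases (red) lie between -1.86 and -2.48 at the lower end, and Gstm5 and Gstp3 (orange) at -0.45 and -0.42.

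The difference of Gstm1 exceeded those of the other 3 within every mouse. The log2 ratio of Gstm1 minus that of Gstm2 was -0.62 ± 0.25 (SD, n = 8), and the same difference was -0.55 ± 0.14 against Gstm6 and -0.60 ± 0.13 against Gstp1. Each was negative in 8 of 8 mice (exact sign-flip permutation, p = 0.00781, adjusted p = 0.0156 over 6 pairs). Gstm6, Gstp1 and Gstm2 were not separated from each other. Gstm2 minus Gstm6 was 0.07 ± 0.13 (exact adjusted p = 0.305), Gstm2 minus Gstp1 was 0.02 ± 0.25 (exact adjusted p = 0.859) and Gstm6 minus Gstp1 was -0.05 ± 0.17 (exact adjusted p = 0.525). These p-values do not show that the 3 responded alike, and binding of paralogs by the probes would draw the values of the mu genes together.

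The 2 arrays of a mouse, hybridised from the same labelled RNA, measured the part of this spread that arises after labelling. Differences from RNA preparation and labelling lie in the spread among mice. The SD between the arrays of a mouse was 0.076 for Gstm1, 0.17 for Gstm2, 0.13 for Gstm6 and 0.10 for Gstp1. For Gstm1 the SD among mouse means was 3.02 times that, against 1.58 to 1.64 times for the other 3. A mouse mean averages 2 arrays, while the SD between arrays is that of single arrays. A ratio of 1 would therefore not mark equal spread. These ratios rested on single mice. Without SY518Z, whose arrays carry different codes, the ratio was 2.50 for Gstm1, 2.01 for Gstm2, 2.94 for Gstm6 and 2.25 for Gstp1, with the SD between arrays of Gstm6 at 0.064. Without TP4215 the ratio of Gstm1 was 6.96. The ratios were deposited with 1 decimal, which at the smallest of these ratios is a step of 0.054 on the log2 scale.

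The mouse identifiers fall into the series SY and TP with 4 mice each, whose meaning the labels do not give, and arrays of the codes c3z and bl7 follow them except in SY518Z, which had 1 of each. Gstm2 averaged -1.62 in SY and -2.10 in TP mice, a difference of 0.48 ± 0.071 (SE; limma, adjusted p = 0.00768). Gstm6 averaged -1.78 and -2.08, a difference of 0.31 ± 0.080 (SE; adjusted p = 0.0475). Of all rows tested, 5.7% were called, 1.29% higher in SY and 4.41% lower. The series did not overlap in 10.3%, and in 3.29% every TP mouse lay below every SY mouse. Gstm1 differed by 0.15 ± 0.12 (SE; adjusted p = 0.471) and Gstp1 by 0.04 ± 0.097 (SE; adjusted p = 0.797).

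Whether the members differed in this was tested directly. The difference Gstm2 minus Gstp1 was 0.23 in SY and -0.20 in TP mice, and Gstm6 minus Gstp1 was 0.08 and -0.18 (exact permutation of 4 against 4 mice, p = 0.0286 for each, the smallest it can give, adjusted p = 0.0857 over 6 pairs). Gstm1 minus Gstm2 was -0.78 in SY and -0.46 in TP mice (exact permutation, adjusted p = 0.129). No pair passed after adjustment. With 4 against 4 mice a pair can pass only if several pairs reach the smallest p together, so this does not show that the members were alike.

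The SY and TP contrast moved with the scale of the arrays. The SD over all probes was 0.173 to 0.208 on the c3z arrays and 0.208 to 0.26 on the bl7 arrays. With all arrays scaled to a common SD, the difference between SY and TP fell to 0.13 for Gstm2 (limma, adjusted p = 0.542) and turned to -0.07 for Gstm6 (adjusted p = 0.792). The same scaling took the difference of Gstm1 from 0.15 to -0.34, which was not called. Whether a common SD is right for these arrays was not tested. In SY518Z, whose RNA was read on both codes, the bl7 array was lower than the c3z array by 0.415 for Gstm2, 0.454 for Gstm6 and 0.286 for Gstp1, each the largest gap between the arrays of any mouse for that gene. For Gstm1 the bl7 array of this mouse was higher by 0.032. The call of Gstm2 held without each mouse in turn. That of Gstm6 was lost without SY521RL, SY518Z, TP4168, SY524ROB+L, TP4205, SY522ROB or TP4163 (adjusted p 0.0522 to 0.137) and held only without TP4215 (0.034). Series and array code cannot be told apart outside SY518Z.

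Gstm1 and Gstp1, on different chromosomes, varied together across the mice. Pearson's r was 0.846 over 8 mice (exact permutation p = 0.00774, adjusted p = 0.0232 over 6 pairs) and Spearman's rho was 0.833 (exact permutation p = 0.0154, adjusted p = 0.0461). Without SY518Z and TP4168, the mice farthest from the median of Gstm1, r was 0.914 over 6 mice. Within a series of 4 mice r was 0.561 in SY and 0.977 in TP, too few for a test. Over all 6 pairs of members r was -0.38 to 0.95 within SY and 0.86 to 0.98 within TP mice. A high r was thus not particular to Gstm1 with Gstp1. The relation did not pass without TP4168 (r = 0.780, exact adjusted p = 0.107) or TP4205 (r = 0.826, exact adjusted p = 0.0762), nor on the first array of each mouse alone (r = 0.634, exact adjusted p = 0.220). All values of a mouse share its arrays and control RNA. No pooled r is given for pairs with Gstm2 or Gstm6, whose SY and TP mice lay apart, and each series was too small for a test of its own.

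**Figure D3:**
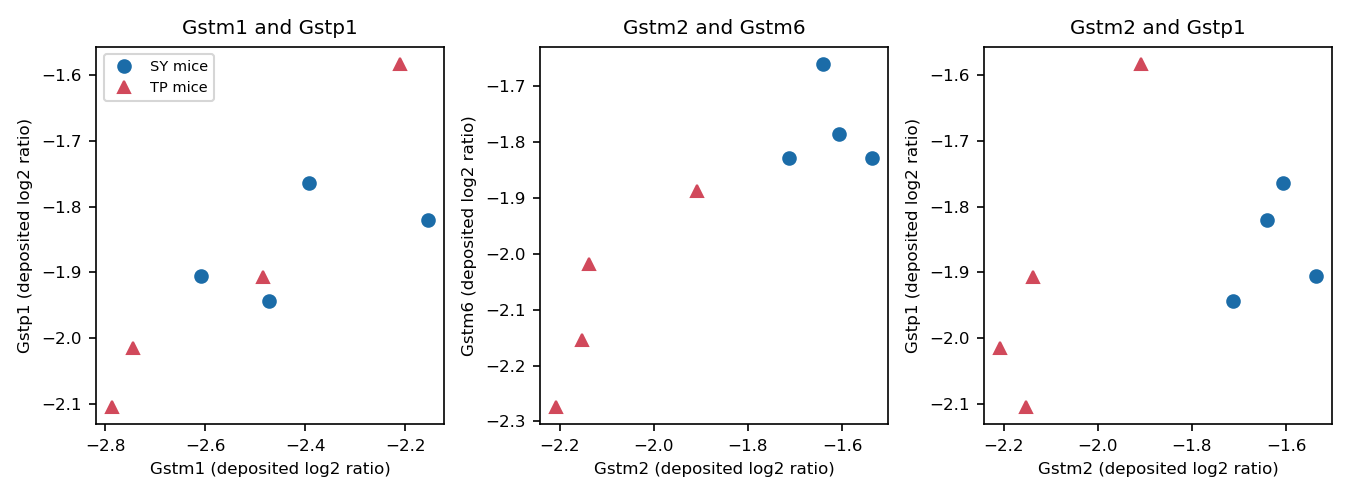
Deposited log2 ratios of Gstm1 with Gstp1, Gstm2 with Gstm6 and Gstm2 with Gstp1, 1 point per mouse (circles SY, triangles TP; axes as labelled, mean of 2 arrays). Gstm1 and Gstp1 fall along a common line with r = 0.846, while the SY and TP mice form separate groups along Gstm2.

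The genes with the profile most like the mean of the 4 transferases over the 8 mice, among 1548 named genes with a spread of at least 1 rounding step, were Rarres1 (r = 0.906), P4hb (0.904), Ehhadh (0.893), Mrpl2 (0.887) and Guk1 (0.881). They were picked as the highest r of 1548 over only 8 mice, so values this high can arise from the selection alone, and none was tested. The profile also pools SY and TP mice, which lay apart for Gstm2 and Gstm6. P4hb encodes protein disulfide isomerase and Ehhadh a peroxisomal enzyme of fatty acid oxidation. Against 0, P4hb (-0.32 ± 0.17), Ehhadh (-0.36 ± 0.36) and Mrpl2 (-0.22 ± 0.14) were called negative, while Rarres1 (0.12 ± 0.35, limma adjusted p = 0.33) and Guk1 (0.04 ± 0.14, adjusted p = 0.486) were not called. All 5 had lower means in TP than in SY mice, as had the 4 transferases. Choosing genes by r with the transferase mean favours this, so it is no separate observation.

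The neighbouring genes of both clusters had far smaller ratios. Gstm5, a mu gene best known from brain and testis, was at -0.37 to -0.38 in the 4 SY mice and at -0.43 to -0.59 in the TP mice. Its mean was -0.45 ± 0.087 (SD, n = 8), a 1.36-fold difference (limma, adjusted p = 2.88e-06). Gstp3 was at -0.42 ± 0.12, a 1.34-fold difference (adjusted p = 1.61e-05), and was negative on 15 of 16 arrays. The exception was an array of SY524ROB+L at 0.138, whose partner read -0.38. Gstm5 passed against a minimum of 1.2-fold (limma treat, adjusted p = 0.00754) and Gstp3 did not (0.0732).

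The remaining transferases went both ways. Of 9 measured, 3 were called negative, 4 positive and 2 were not called, beside 25.4% negative and 18% positive over all rows, with a median of 0.11 against -0.02. Against a minimum of 1.2-fold (limma treat) 2 stayed negative, Gsta2 and Gsta4, and 1 positive, Gstz1. The negative ones were the alpha class genes Gsta2 (-1.11 ± 0.30) and Gsta4 (-0.85 ± 0.15), whose product conjugates lipid peroxidation aldehydes, and the microsomal Mgst3 (-0.32 ± 0.11). The positive ones were Gstz1, which isomerises maleylacetoacetate in tyrosine breakdown (0.52 ± 0.17), the mitochondrial and peroxisomal Gstk1 (0.33 ± 0.11), Gstt2 of the theta class (0.21 ± 0.13) and Gsto1 of the omega class (0.13 ± 0.15). Gsta3 was at 0.07 (limma, adjusted p = 0.36) and Gstt1 at 0.11 (adjusted p = 0.141).

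**Figure D4:**
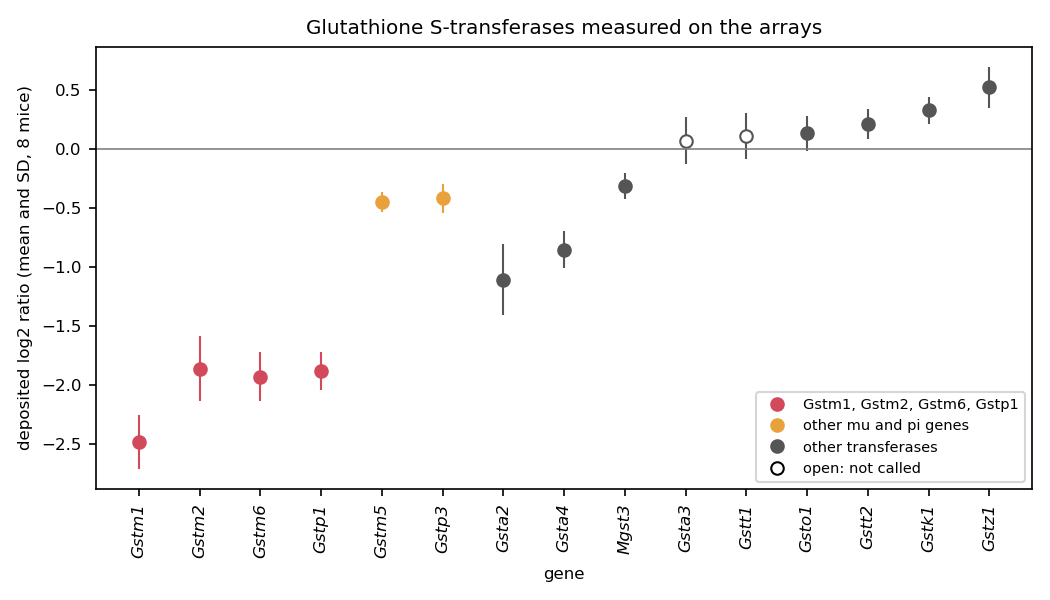
Mean deposited log2 ratio with SD over 8 mice (y axis) of the 15 transferase genes measured (x axis), coloured by group, with open circles for genes not called. The 4 genes in red lie between -1.86 and -2.48, the other mu and pi genes near -0.4, and the rest between -1.11 and 0.52.

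Genes that supply glutathione had small ratios. Of 11 tested, 6 were called negative and 2 positive, with a median of -0.21, beside 25.4% negative, 18% positive and a median of -0.02 over all rows. The 2 subunits of glutamate-cysteine ligase, the rate-limiting enzyme of glutathione synthesis, were at -0.21 ± 0.20 (Gclc) and -0.33 ± 0.14 (Gclm). The pentose phosphate enzyme Tkt (-0.46 ± 0.12) and malic enzyme Me1 (-0.43 ± 0.19), which both bear on NADPH supply, lay farthest below 0, and Mat1a (0.33 ± 0.30) and Idh1 (0.11 ± 0.10) were the positive ones. None came near the ratios of the 4 transferases.

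Of 10 enzymes that use glutathione or thioredoxin, 4 were called negative and 2 positive (median 0.02), not far from the 25.4% and 18% of all rows. They included Esd (-0.38 ± 0.14) and the thioredoxin reductase Txnrd1 (-0.33 ± 0.22) on the negative side and Adh5 (0.26 ± 0.13) and Prdx2 (0.09 ± 0.080) on the positive side. Of 6 exporters and mercapturate enzymes 1 was negative and 2 positive, also near those shares. The negative one was the dipeptidase Dpep1 (-0.15 ± 0.082). The positive ones were the exporters Abcc5 (0.26 ± 0.13) and Abcc2 (0.12 ± 0.13), of which Abcc2 carries glutathione conjugates into bile.

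Genes that control NRF2 had small ratios. Of 11 tested, 4 were negative and 1 positive, with a median of -2.22e-04, beside 25.4% and 18% of all rows. Keap1 was at -0.14 ± 0.082 (limma, adjusted p = 0.00388), close to the smallest step of the deposited ratios, 0.138. Jund (-0.22 ± 0.089) and Fos (-0.18 ± 0.12) lay farthest below 0, and the coactivator Crebbp (0.30 ± 0.13) was positive. Nfe2l2, which encodes NRF2 itself, was not analysed here. Of 21 NRF2 targets outside the transferases, 14 were negative and 2 positive (median -0.33), beside 25.4% and 18% of all rows. They were led by the microsomal epoxide hydrolase Ephx1 (-1.14 ± 0.16) and carbonyl reductase Cbr1 (-0.91 ± 0.15), and the positive ones were Abcc2 and Aldh3a1 (0.11 ± 0.11). The means of Abcc2 and Aldh3a1, like those of Idh1, Prdx2 and Gsto1 above, were below the smallest step of 0.138. Several of the NRF2 targets, such as Gclc, Gclm, Tkt, Me1, Txnrd1 and Abcc2, also stand in the lists above, so the counts are not independent. Against a minimum of 1.2-fold (limma treat) the negative calls came to 4 for these targets, 1 for glutathione supply and 0 for each of the other 3 pathway lists, and no positive call was left in any of them, beside 0.815% negative and 0.659% positive calls over all rows.

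Markers of other liver cells had small median ratios, and more were called negative than positive. Over all rows 25.4% were called negative and 18% positive. Most markers of the macrophage, stellate cell and lymphocyte lists were called negative, a larger share than over all rows. Of 14 Kupffer cell and macrophage markers 10 were negative and 1 positive (median -0.18), of 13 stellate cell and fibroblast markers 8 and 0 (median -0.20), of 7 bile duct markers 3 and 1 (median -0.09), of 7 endothelial markers 2 and 0 (median -0.04) and of 10 lymphocyte markers 6 and 1 (median -0.10). Of 12 hepatocyte genes 3 were negative and 3 positive (median 0.07), and Alb was not called (0.14, limma adjusted p = 0.21). Against a minimum of 1.2-fold, 1 macrophage marker was called negative and 1 hepatocyte gene positive, and none of the other 4 lists had a call. In bulk liver, a change in the number of cells of a type and a change in RNA per cell cannot be told apart. The part of cell composition in the ratios of the transferases was not tested.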

How the data were processed

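Per the values, the log2 ratios that the authors deposited for each array come from ratios with 1 decimal. The sources used here name no normalization, background treatment or numerator. Array medians were all 0, and nothing was rescaled. Probes were named from the platform annotation through Entrez identifiers in RefSeq (7407 had 1 symbol, 437 several and 1752 none). Probes of a gene and then the 2 arrays of a mouse were averaged, and 8348 rows with values in 6 or more mice were tested two-sided against 0 in limma (version 3.58.1, R 4.3.3) by lmFit with eBayes, and p-values were adjusted by Benjamini-Hochberg over all rows (called under 0.05). All 4 transferases had values on all 16 arrays. Fits were run on simulated data with independent normal noise in each row, which held no shared control RNA and no array code. That run checked the code only. Single comparisons used exact permutation tests (two-sided). The labels give separate mouse identifiers, so the spread is that between animals together with the RNA preparation, labelling and array code of each. The members and gene lists were chosen with earlier results of these data known. Named genes were the 4 transferases, their measured mu and pi neighbours, called transferases of other classes, the 2 called genes farthest from 0 in each direction of each pathway list with Nfe2l2, Keap1, Gclc and Gclm, and the 5 genes nearest in profile. Cell type lists were summarised as counts, and Alb, Phlda1 and Dao were chosen after their values were seen. Promoter windows were searched in Python with Biopython 1.88, and figures drawn with matplotlib 3.10.9.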

Additional observations from a re-analysis of the deposited data

Results flagged for a closer look

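Gstm2 differed between SY and TP mice, with SY higher by 0.477 on the log2 scale (limma, adjusted p = 0.00768), and Gstm6 differed in the same direction by 0.308 (adjusted p = 0.0475). Both differences lost their call with arrays scaled to a common SD.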

How the results depend on the processing

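The 4 transferases kept their sign and their call against 0 under all 31 alternatives run for each, with log2 ratios of -2.56 to -2.41 for Gstm1, -2.10 to -1.57 for Gstm2, -2.08 to -1.72 for Gstm6 and -1.92 to -1.82 for Gstp1 (largest p 0.00781, the smallest that the exact sign-flip test can give), and the 3 differences between Gstm1 and the others also kept their calls. Scaling to a common SD and the versions without 1 array of SY518Z were chosen after seeing the data. The median absolute value was the same on every array, so scaling by it, like centring, changed nothing. The count of rows called against 0 (3622) was 123 against a minimum of 1.2-fold, 1811 with the control as a mix of 7 mice, 2159 in SY mice alone and 2191 on c3z arrays alone, and 3033 to 3722 without single mice.

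The difference between SY and TP depended on the processing. Under quantile normalization, which gives the lowest probe of every array the same value and so removes any difference of Gstm1, it was 0.161 for Gstm2, 0.027 for Gstm6 and -0.33 for Gstp1 (limma, adjusted p = 0.0356), the last reversed. With a common SD it was 0.127 for Gstm2, -0.0659 for Gstm6 and -0.339 for Gstm1, none of them called. On first arrays it was 0.437 for Gstm2 and 0.248 for Gstm6, on second arrays 0.367 for Gstm6, and without the c3z array of SY518Z 0.425 for Gstm2 and 0.251 for Gstm6, none of them called. Gstm2 stayed called on second arrays (0.518, limma, adjusted p = 0.0496). Between array codes, with the mouse as a random block, Gstm2 (0.464, limma, adjusted p = 0.00109) and Gstm6 (0.34, adjusted p = 0.00251) were called. The call held in 16 of 20 alternatives for Gstm2 and in 7 of 20 for Gstm6. With values required in all 8 mice Gstm6 missed the threshold at 0.308 (limma, adjusted p = 0.0527), where fewer rows were tested. Without single mice Gstm6 ranged from 0.244 to 0.373. The count of rows called between SY and TP (476) was 43 to 1249 without single mice, 228 on second arrays, 1636 between array codes with the mouse as a random block, 940 without the bl7 and 27 without the c3z array of SY518Z, and 0 on first arrays (limma; 1467 at an unadjusted p under 0.05, no other tool was run). The correlation of Gstm1 with Gstp1 was 0.634 on first arrays (exact adjusted p = 0.220, no longer called) and 0.780 to 0.941 without single mice. Other causes were not tested. Treated and control mice could not be paired, because the labels name no single control mouse. Only differences between members were paired, within each mouse.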
